A study of Equus caballus with 4 samples.

Results

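The interleukin 1 ligands IL1A and IL1B, the receptor antagonist IL1RN and the decoy receptor IL1R2 were followed in equine sarcoids, which are locally invasive fibroblastic tumours of horse skin. Each of 4 horses gave 1 sarcoid and 1 sample of skin taken away from the tumour. RNA from the sarcoid (Cy3) and RNA from the distant skin (Cy5) of the same horse were hybridised to 1 two-colour Agilent array, so every log2 ratio is sarcoid over skin within a horse. The labels give no breed, age, treatment or tumour site, the controls came from horses that bore sarcoids, and the dyes were swapped on 0 arrays, so a dye effect specific to a probe is part of its ratio. The 4 genes, of 25215 genes or unnamed transcripts on the array, were read from every probe whose RefSeq transcript belongs to them in a horse RefSeq gene table. These came to 18 of the 43603 probes that are not controls, with 3 for IL1A, 4 for IL1B, 10 for IL1RN and 1 for IL1R2.

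Interleukin 1 alpha and beta are ligands that bind the signalling receptor IL1R1 together with an accessory chain and switch on NF-kappa-B and MAP kinase signalling, which drives inflammatory genes. The antagonist encoded by IL1RN occupies IL1R1 without starting a signal, and the decoy receptor encoded by IL1R2 binds the ligands but lacks the cytoplasmic domain that signals. In skin, keratinocytes are known to hold stores of interleukin 1 alpha and of an intracellular form of the antagonist. In the gene table used here, 2 horse genes carry IL1B as a synonym, LOC100034237 and LOC100052414, and the 4 IL1B probes were designed to a transcript of LOC100034237. Signal from the other copy cannot be told apart in them. IL1A, both IL1B genes and IL1RN lie in 1 stretch of the TB-T2T horse assembly, with IL36G, IL36A, IL36B, IL36RN and IL1F10 between them, and no probe of those last 5 genes was matched by name.

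Both inhibitors of the pathway were lower in the sarcoids, while neither ligand passed the test. The call of IL1RN, unlike that of IL1R2, was lost when the background model was fitted with outlier spots included (-1.28, limma adjusted p = 0.188). IL1R2 had a log2 ratio of -5.39 ± 0.54 and IL1RN, from its brightest probe, of -2.20 ± 0.44 (SD, n = 4; limma adjusted p = 0.000278 and 0.00243). IL1A was at -0.96 ± 0.68 and IL1B at -0.44 ± 0.50 (limma adjusted p = 0.076 and 0.231). A gene was represented by its brightest probe, and a call needed an adjusted p under 0.05 over all 19607 targets tested, a target being a gene or, where no symbol was found, an accession. So 2 of the 4 genes were called lower and 0 higher, beside 9.9% of all targets called lower and 5.84% called higher. With outlier spots in the background fit, 147 targets were called lower, against 1941 here. The normalized levels of all 4 sarcoids lay below those of all 4 skins for IL1R2 and IL1RN, as they did for 13.1% of the targets. The IL1B levels overlapped. The IL1A levels did not, but IL1A was tested only because its skin spots were bright enough, so its separation is given as a description. Whether the RNA samples held fewer cells that express a gene or less of its RNA per cell cannot be told apart in tissue of this kind.

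**Figure D1:**
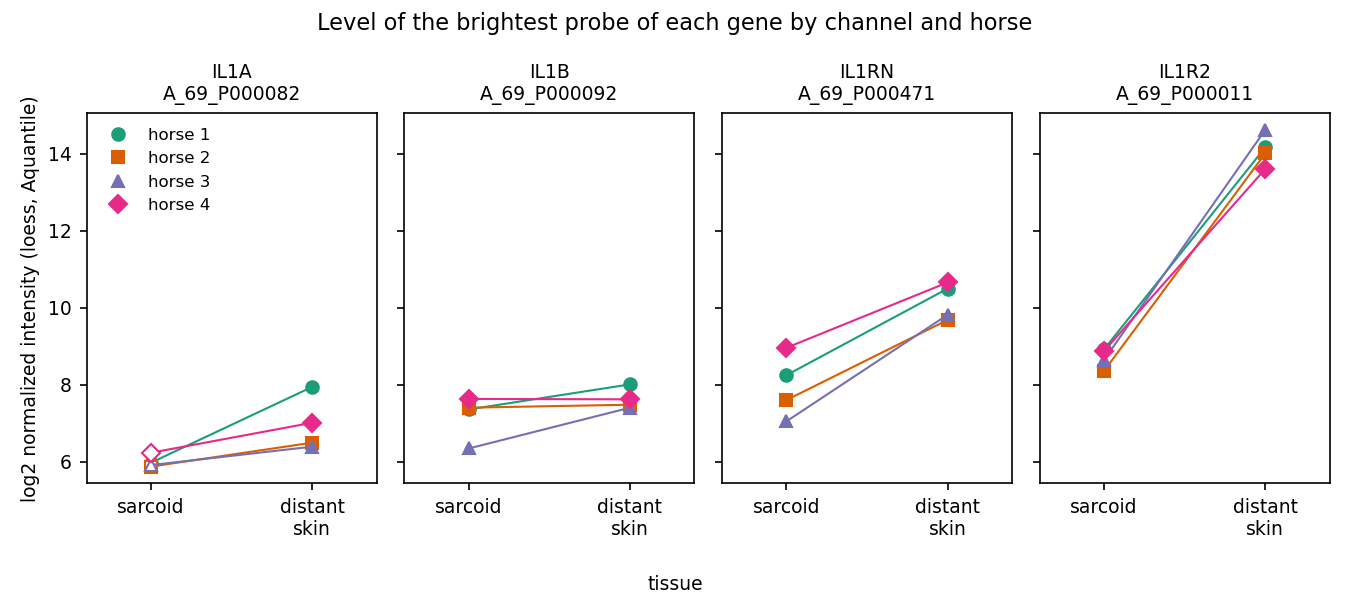
Normalized log2 intensity (y axis, after loess and Aquantile) of the brightest probe of each gene in the sarcoid and the distant skin of 4 horses, with lines joining the tissues of 1 horse and open symbols marking spots not well above background. The IL1R2 levels are 8.36 to 8.92 in sarcoids against 13.60 to 14.62 in skin, and the IL1B lines are nearly flat in horses 2 and 4. Levels of different probes are not comparable with each other.

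The decoy receptor stood out on every array. The single IL1R2 probe, A_69_P000011, had median spot intensities of 450.5, 241, 359 and 359.5 in the sarcoids of horses 1 to 4, against 16410.5, 21693.5, 31854 and 20594 in their skin. These are deposited intensities of different dyes, which share no scale until they are normalized. All 8 spots were well above background and none was saturated. The log2 ratios were -5.24, -5.64, -5.97 and -4.72 in horses 1 to 4, so no horse came near the values of the other members, and the mean corresponds to a level 42.1 times as high in skin. Among the targets tested, IL1R2 ranked 31 counting from the lowest ratio. There is only 1 probe for this gene, so no second probe checks the value.

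The antagonist was measured by 10 probes that fell into 1 bright and 9 dim ones. The bright probe, A_69_P000471, gave median intensities of 304, 163, 139 and 342 in the sarcoids of horses 1 to 4 and of 1289, 1079, 1090 and 2569 in their skin. Its log2 ratios were -2.25, -2.08, -2.77 and -1.70, and its normalized levels averaged 7.97 ± 0.82 in sarcoids and 10.16 ± 0.48 in skin (SD, n = 4). The skins were higher in all 4 horses and the groups did not overlap. Of the brightest probes of the 4 genes, this one had the widest spread between sarcoids, horse 4 being highest and horse 3 lowest.

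The 9 other IL1RN probes had intensities of 68 to 85 in the sarcoids and of 72 to 105 in skin. Spots were well above background in 1 of 36 cases in the sarcoid channel and in 31 of 36 in the skin channel. For comparison, the 95th percentile of the 153 negative control spots of an array lay between 71 and 77.4 in the sarcoid channel and between 59.7 and 68.2 in the skin channel. Of these probes 7 were tested and 2 were left out as dim. Mean log2 ratios ran from -0.49 to -0.14, and all 36 probe-by-horse ratios were below 0. Only A_69_P004885 was called, at -0.49 ± 0.13 (SD, n = 4; limma adjusted p = 0.0445 over 33864 probes), and its call was lost when any 1 of the 4 horses was left out (limma adjusted p = 0.0825 to 0.16). For the 8 dim probes with no sarcoid spot well above background, the sarcoid level was set at the lowest signal well above background. The probe's own level was used if higher. Skin was then 1.09-fold to 1.34-fold higher. These values are not strict lower bounds, since some spots above that lowest signal were still not well above background. The 2 probes left out had skin well above background in only 2 of 4 horses. The 10 probes share a transcript and so are not replicates of each other. Averaging the 8 tested ones gives IL1RN a ratio of -0.55 (limma adjusted p = 0.0304). The 7 dim ones among them were tested only through their skin spots, so this average is a description and adds no separate evidence.

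**Figure D2:**
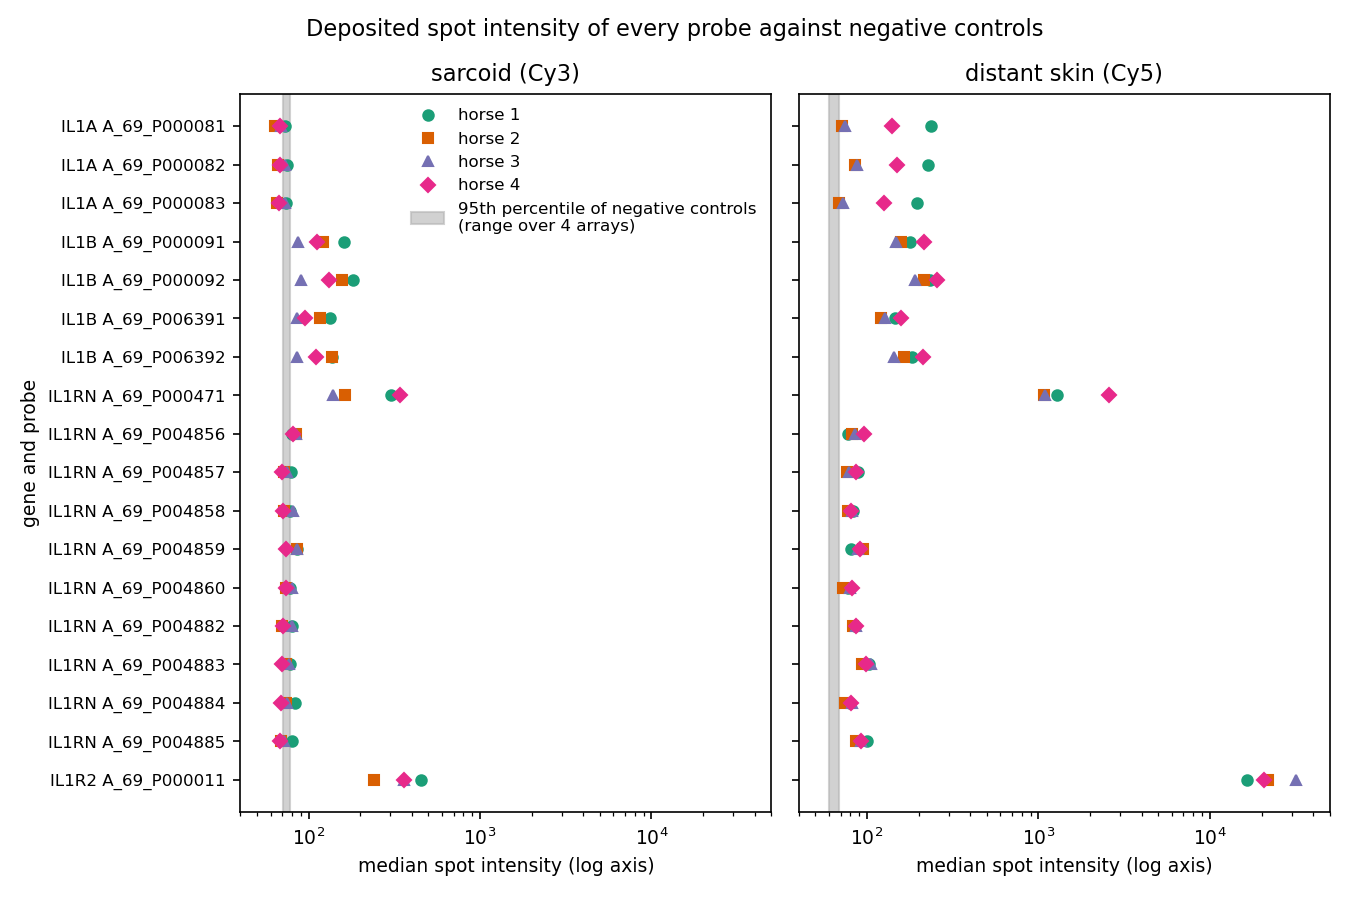
Deposited median spot intensity (x axis, log scale) of all 18 probes in the sarcoid channel (left) and the distant skin channel (right) of 4 horses. The grey band marks the range over arrays of the 95th percentile of negative control spots. The bright IL1RN probe and IL1R2 lie clear of the band in both tissues, the IL1A probes reach 125 to 236 in the skins of horses 1 and 4, and the other 9 IL1RN probes stay at 68 to 105.

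Interleukin 1 alpha was at background in the tumours and was detected in skin. The brightest of its 3 probes, A_69_P000082, had intensities of 75, 66, 72.5 and 68.5 in the sarcoids of horses 1 to 4, against 227, 85, 87 and 149 in their skin. Its spots were well above background in 0 of 4 sarcoids and in 4 of 4 skins. The log2 ratios were -1.97, -0.62, -0.48 and -0.78, so the skin of horse 1 stood highest and those of horses 2 and 3 were close to their sarcoids. The other probes gave -0.91 and -0.79, with the same order of horse 1 before horse 4 and then the other 2. On each of them the skin spots were well above background in 3 of 4 horses, horse 2 being the exception. Because the sarcoid spots did not rise above background, the size of the difference was not measured. With the sarcoid level set as for the dim IL1RN probes, skin was 1.74-fold higher on A_69_P000082. It was 1.52-fold higher on the lowest of the 3 probes, and neither value is a strict lower bound. None of the 3 probes was called (limma adjusted p = 0.068 to 0.107 over all probes).

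Agilent's processed signals, which subtract the background without an added offset, put IL1A at -3.78 ± 1.47 and passed the test (limma adjusted p = 0.00616). With those signals all 12 probe-by-horse ratios of IL1A were below 0, as they were in the values above, but the probes share a transcript. IL1A was tested only through its skin spots, and its sarcoid spots were at background. The value of -3.78 is therefore not a measured size, and the pass is a description. The processed signals differ from the values above in dye correction as well as in background. With no background correction at all IL1A was at -0.90 and was not called (limma adjusted p = 0.0943).

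Interleukin 1 beta was detected in both tissues, with no difference that passed the test. Its brightest probe, A_69_P000092, had intensities of 181, 155.5, 90 and 131 in the sarcoids of horses 1 to 4 and of 232, 215.5, 191 and 257 in their skin, and all 8 spots were well above background. The log2 ratios were -0.65, -0.08, -1.06 and 0.01. Horses 1 and 3 were lower in the sarcoid, horses 2 and 4 were near 0, and the levels of the tissues overlapped. On A_69_P000091, A_69_P006391 and A_69_P006392 the sarcoid spot of horse 3, at 87, 86 and 85, was not well above background. Over its 4 probes the mean ratio of IL1B ran from -0.44 to -0.26 and 0 probes were called (limma adjusted p = 0.194 to 0.368). Of 16 probe-by-horse ratios 13 were below 0, and with Agilent's processed signals 9 were.

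**Figure D3:**
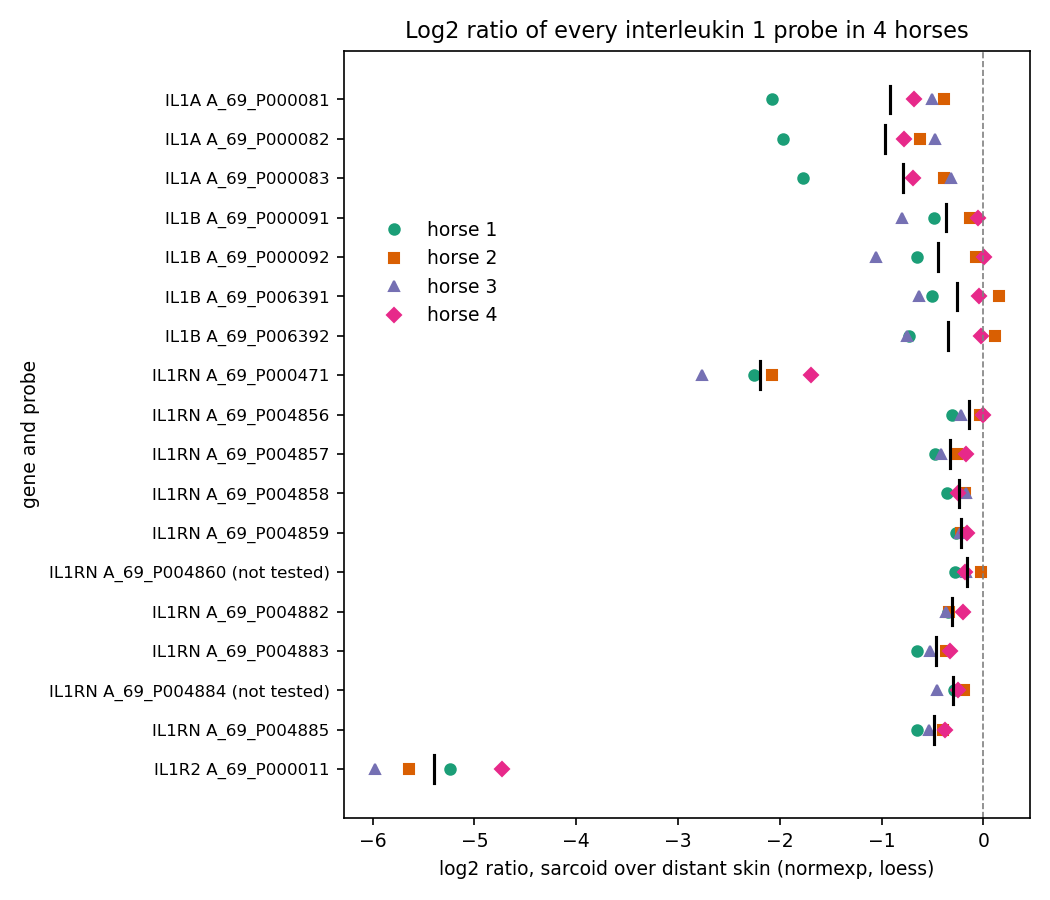
Log2 ratio of sarcoid over distant skin (x axis) for each of the 18 probes (rows), with 1 symbol per horse and a black bar at the mean. IL1R2 lies between -5.97 and -4.72 and the bright IL1RN probe between -2.77 and -1.70. All other probes average between -0.96 and -0.14.

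Over all 18 probes, 16 were tested, 3 were called lower and 0 higher, beside 11.2% and 6.97% of the 33864 probes tested. The called ones were the IL1R2 probe and 2 IL1RN probes. Of the 16, 10 were tested only through the skin channel, where they are brighter, and A_69_P004885 is one of these, so the count is a description. The count moved with the processing, and so did calls over the whole array. Targets called lower ran from 147 to 2678 over the other settings, against 1941 as reported. With Agilent's processed signals 11 member probes were called lower. With outlier spots left out after the background model was fitted, in place of before it, only the IL1R2 probe was.

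That second setting ended the call of IL1RN, and it left 147 targets called lower over the whole array, against 1941 as reported. The IL1RN ratio was then -1.28 (limma adjusted p = 0.188), with horses 1 to 4 at -2.25, -0.80, -0.36 and -1.70. Horses 1 and 4 kept their printed values, while horses 2 and 3 moved towards 0. On the arrays of horses 2 and 3 the SD of the fitted background was 495 and 1394 in the sarcoid channel with all spots, against 1.57 and 0.948 without the outlier spots. On those of horses 1 and 4 it was 1.12 and 1.19 in that channel with all spots. In the skin channel of horses 2 and 3 the SD was 177 and 1536 with all spots, against 0.124 and 0.639 without the outlier spots. IL1R2 stayed called at -4.47 (limma adjusted p = 0.0177), with -5.24, -4.12, -3.81 and -4.72 in horses 1 to 4. IL1B was at -0.17 and IL1A at -0.70 in this setting, and neither was called.

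The ratios of the members were compared with each other within horses. The log2 ratio of IL1R2 minus that of IL1RN was -3.20 ± 0.26, with -2.99, -3.56, -3.20 and -3.03 in horses 1 to 4. IL1RN minus IL1B was -1.75 ± 0.17, with -1.60 in horse 1, -1.71 in horses 3 and 4 and the lowest value in horse 2. With outlier spots left out after the background fit, IL1RN minus IL1B was -1.10 ± 0.66 and ran from -1.71 in horse 4 to -0.32 in horse 3, while IL1R2 minus IL1RN stayed at -3.20 ± 0.22. Both differences, in either setting, had the same sign in 4 of 4 horses (exact sign-flip test, two-sided, p = 0.125 each, the smallest that 4 horses allow). IL1RN minus IL1A averaged -1.24 ± 0.85 and was below 0 in 4 of 4 horses, from -2.29 in horse 3 to -0.28 in horse 1, and it was -0.57 ± 0.31 with outlier spots left out after the fit. IL1A and IL1B did not differ beyond their spread (-0.52 ± 0.80, below 0 in 3 of 4 horses, exact sign-flip p = 0.375). Comparisons with IL1A are limited by its sarcoid level, which was at background.

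**Figure D4:**
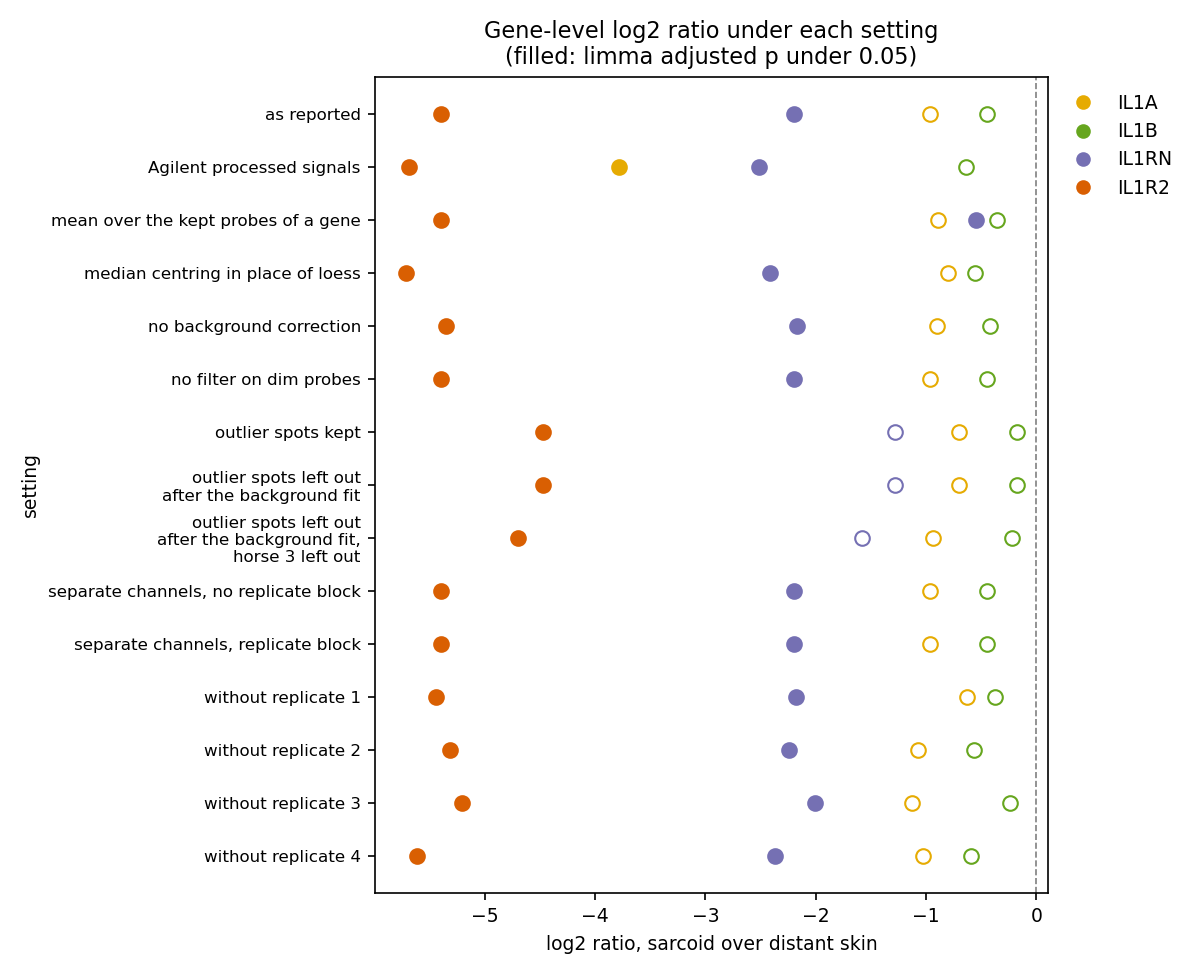
Gene-level log2 ratio of sarcoid over distant skin (x axis) as reported and under each other processing setting (rows), where a replicate is a horse and filled circles have a limma adjusted p under 0.05. IL1R2 was called in every setting shown, IL1RN in all but the 3 that fitted the background model with outlier spots, IL1A only with Agilent's processed signals, and IL1B in none.

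The rest of the pathway was thinly covered, since only 5.35% of the probes could be named. Of 89 listed genes around interleukin 1, 24 were tested, of which 2 were called lower, 2 higher and 20 did not pass, beside 12% called lower, 7.58% called higher and 19.6% called either way of the 792 targets with a symbol. Their median log2 ratio was -0.05, against -0.07 over the targets with a symbol. IL1R1, the receptor that carries the signal, was at 0.21 ± 0.40 (SD, n = 4; limma adjusted p = 0.482) and above 0 in 3 of 4 horses. IL18, a ligand of the same family that is also cut by caspase 1, was at -0.98 ± 0.91 (limma adjusted p = 0.132), with 0.35 in horse 4 and -1.65 to -1.14 in the others. Without horse 4 IL18 passed the test, at -1.42 (limma adjusted p = 0.0159), as it did with median centring in place of loess, at -1.27 (0.0432).

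CASP1, the protease that releases active interleukin 1 beta from its precursor, was lower in the sarcoids. Its log2 ratios were -0.84, -0.95, -1.52 and -0.39 in horses 1 to 4, with a mean of -0.92 ± 0.47 (limma adjusted p = 0.0375). The call of CASP1 was lost without horse 1, 2 or 3 (limma adjusted p = 0.12, 0.12 and 0.0773), with Agilent's processed signals (0.0559) and with outlier spots in the background fit (0.197), so it stands close to the threshold. Of the 2 measured signalling genes, the transcription factor gene FOS was lower, at -3.10 ± 1.77 (limma adjusted p = 0.0357), and TAB3, an adaptor of the kinase TAK1, was at -0.19 ± 0.11. The call of FOS was also lost without horse 1 or 2 (limma adjusted p = 0.0876 and 0.113) and with outlier spots in the background fit (0.115).

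Of 19 measured genes that interleukin 1 is known to induce, 2 rose, 0 fell and 17 did not pass, with a median of 0.04. Beside this, 7.58% of the 792 targets with a symbol were called higher and 12% lower. The genes that rose were VCAM1, an adhesion molecule for leukocytes, at 2.61 ± 0.78, and TNFAIP6, a hyaluronan-binding protein, at 2.30 ± 0.36 (SD, n = 4; limma adjusted p = 0.00631 and 0.0013). Both calls were lost with outlier spots in the background fit (limma adjusted p = 0.0705 and 0.124). DEFB4B, a beta-defensin of the epithelium, had the lowest ratio of the group, at -2.59 ± 1.67, and was below 0 in 4 of 4 horses, from -4.13 in horse 3 to -0.55 in horse 1. It just missed the threshold (limma adjusted p = 0.0501), passed it without horse 1 (0.0334), with Agilent's processed signals (0.0478) and with median centring (0.0375), and stood at 0.291 with outlier spots in the background fit. SAA1, an acute phase protein, was at 1.45 ± 1.77 and was not called, with -1.15 in horse 3 and 2.03 to 2.79 in the others, and without horse 3 it passed at 2.32 (limma adjusted p = 0.00959). These and the other genes of this group that follow were named after their values were seen. The cytokine genes were IL6 at 0.28 ± 0.17 and TNF at -0.28 ± 0.71, with PTGS2, the inducible cyclooxygenase, at -0.03 ± 0.73 and the neutrophil chemokine CXCL8 at -0.41 ± 0.64. None of these 4 was called (limma adjusted p = 0.181 to 0.959), and the probes disagreed in sign for CXCL8 (6 probes, -0.41 to 0.01) and PTGS2 (3 probes, -0.03 to 0.31). The collagenase MMP1 was at 1.37 ± 1.11 and the monocyte chemokine CCL2 at -0.89 ± 1.07, and neither was called. MMP3, another matrix metalloproteinase, was at -0.63 ± 1.91 and was not called either.

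**Figure D5:**
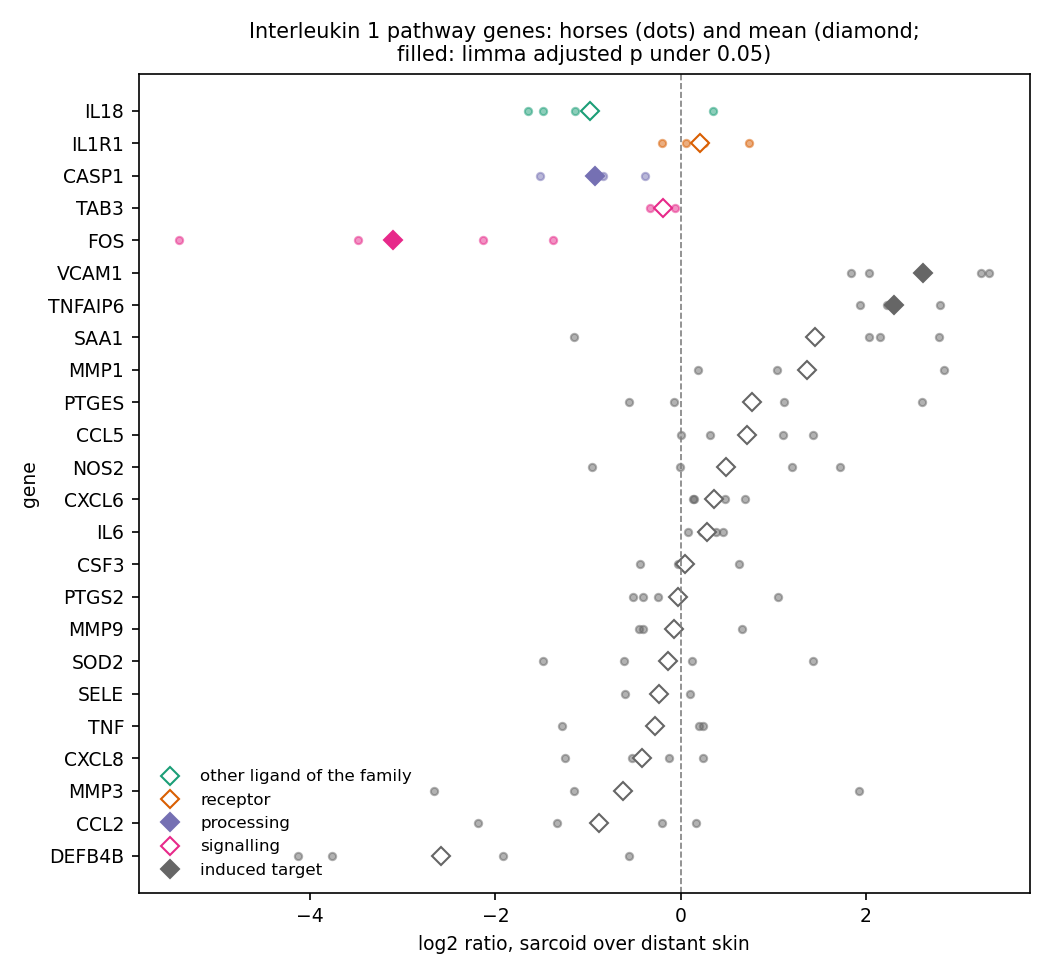
Log2 ratio of sarcoid over distant skin (x axis) for the 24 tested genes around interleukin 1 (rows), with dots for horses and diamonds for means, filled where the limma adjusted p was under 0.05. VCAM1 at 2.61 and TNFAIP6 at 2.30 lie on the right and FOS at -3.10 and CASP1 at -0.92 on the left, with the other 20 means not called.

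Markers of the tissues moved strongly on the same arrays, where 12% of the 792 targets with a symbol were called lower and 7.58% higher. All 3 measured keratinocyte markers of 22 listed were lower in the sarcoids, KRT15 at -5.12 ± 0.11, S100A7 at -5.13 ± 0.36 and SPINK9 at -5.44 ± 1.01 (SD, n = 4), and their summed normalized intensity was 1305 to 3249 in sarcoids against 38787 to 136781 in skin. All 4 measured gland markers of 11 were lower, including LATH, the surfactant protein of horse sweat, at -6.33 ± 0.26, with sums of 4046 to 6846 in sarcoids against 301422 to 419873 in skin. All 7 measured fibroblast markers of 16 were higher, with sums of 900143 to 1268020 in sarcoids against 150018 to 251073 in skin. With outlier spots left out after the background fit, KRT15, LATH, LUM and BGN stayed called. The keratinocyte markers S100A7 and SPINK9 were then not called (limma adjusted p = 0.0516 and 0.217), nor were the gland markers HSD3B2, CA6 and LTF (0.0636, 0.173 and 0.305) or the fibroblast markers SPARC and COL14A1 (0.0765 and 0.0963). The call of SPARC was also lost without horse 1, 2 or 3 (limma adjusted p = 0.0507 to 0.0652). Each of the keratinocyte and gland markers was well above background in at least 2 sarcoids. SPINK9, with 2, was tested only through its skin spots, so its lower value is a description. The part of epidermal and gland cells in the lower IL1R2 and IL1RN was not tested.

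Leukocytes can also carry IL1R2, IL1RN and IL1B, and 1 of their 15 measured markers passed the test. Of all 792 targets with a symbol, 19.6% were called either way. Of 8 measured macrophage and dendritic cell markers of 16 listed, CSF1R was higher at 1.24 ± 0.51 (limma adjusted p = 0.0199) and 7 did not pass, with a list median of 0.28 and sums of 14274 to 43150 in sarcoids and 12962 to 24244 in skin. The call of CSF1R was lost with median centring (limma adjusted p = 0.0762), without horse 2 or 3 (0.0674 and 0.0502) and with outlier spots in the background fit (0.264). No T and NK cell marker passed of 4 measured, with sums of 754 to 9286 in sarcoids and 1574 to 2622 in skin. No mast cell marker passed of 3, whose median was -0.54, with FCER1A at -1.05 ± 1.49, and with sums of 303 to 3650 in sarcoids and 1346 to 3974 in skin. None of the 12 listed neutrophil markers was matched by name, so that cell type has no value here. Both erythrocyte markers were lower, HBA2 at -1.33 ± 0.33 and HBB at -0.76 ± 0.39, with sums of 218 to 286 in sarcoids and 540 to 615 in skin. HBB was well above background in 1 sarcoid and was tested only through its skin spots, so its lower value is a description. Its call was lost in 11 of 14 other settings, among them leaving out any 1 horse (limma adjusted p = 0.0771 to 0.137). The call of HBA2 was lost in 3, with an adjusted p of up to 0.223.

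Likeness between genes was measured as the root mean square difference of log2 ratios over the 4 horses, among 791 named genes. The closest to IL1R2 were KRT15 (0.57), S100A7 (0.79) and LATH (1.02), all of them among the skin markers above. This measure depends mainly on the size of the ratios and does not show that genes vary together over the horses. Horse 4 was highest for IL1R2 (-4.72) and LATH (-6.02) but lowest for KRT15 (-5.21) and S100A7 (-5.51). Among the closest to IL1RN were CYP3A93 (0.25), a cytochrome P450, and CFTR (0.43), a chloride channel. Of the 4 sarcoids, 1 had CYP3A93 well above background. IL1A lay closest to RGN (0.35), HBB (0.40) and CYB5A (0.45), and IL1B to NRIP1 (0.12), MITF (0.15) and EDIL3 (0.16). RGN, HBB and CYB5A were called lower, and NRIP1, MITF and EDIL3 were not called. Over 14 other settings the call of RGN was lost in 4 (limma adjusted p up to 0.323). That of CYB5A was lost in 6 (up to 0.112).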

How the data were processed

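Per the labels, 100 ng of RNA per tissue was labelled. For 3 samples the description names embryonic stem cells, so groups were taken from the source, tissue and dye labels. The deposited files hold linear spot and background intensity for each dye, from Agilent Feature Extraction (version 11.5.1.1 in the submitters' processing notes). Per the file headers they also hold processed intensity, from which the scanner software had removed background and dye bias, and a log10 ratio of red over green. This deposited log10 ratio matched the processed intensities to within 0.001 in 90.8% to 93.5% of spots, and the authors' value table repeats it (largest difference 0, column medians -0.0118 to 0). Between 67.2% and 80.7% of spots per channel were well above background, the 4 arrays shared 1 slide, and their number limits the precision.

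Outlier spots were left out first. Median signals then went through normexp (offset 50) and loess in limma 3.58.1 (R 4.3.3), with control spots at weight 0. A probe was tested if at least 3 arrays had it well above background in the sarcoid or in the skin channel. The limma test (lmFit, eBayes) asked in 2-sided form whether the log2 ratio was 0, and Benjamini-Hochberg adjustment ran over all targets, or all probes for probe values. Symbols came from RefSeq (2332 of 3437 probes with a RefSeq accession), whose build need not be that of the array design, so no coordinates are given. IL1B was matched through a synonym, and placeholder symbols were not counted as names. Named were all members, up to 4 called or otherwise 2 uncalled genes per list, and the 3 genes most like each member, of which 1 is not reported here; 9 further targets of interleukin 1 were named after their values were seen. Members and lists were chosen with earlier results of these data known. The fit was tested on simulated data. The limma p-values rest on the spread between these 4 horses, with each variance drawn towards a value shared by all targets or probes.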

Additional observations from a re-analysis of the deposited data

Results flagged for a closer look

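Of 96 sets of 4 values checked, 4 held a value far from the other 3, which chance gives in about 1 of 20 sets. On the IL1B probe A_69_P006391 the sarcoid of horse 3, whose spot was not well above background, had a log2 level of 6.25, against 6.90 to 6.98 in the other sarcoids. On the IL1A probe A_69_P000081 the sarcoid of horse 4 stood at 6.26, against 5.85 to 5.91 in the others, and none of these spots was well above background. The log2 ratio of BGN, a matrix proteoglycan, was 3.98 in horse 1, against 2.67 to 2.85 in the others. That of SPARC, a collagen-binding protein, was 1.20 in horse 4, against 3.36 to 3.74.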

How the results depend on the processing

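IL1R2 and IL1RN kept their direction in all 14 settings, and so did IL1A and IL1B. IL1R2 was called in all 14 (-5.71 to -4.47). IL1RN lost its call with outlier spots kept (-1.28), left out after the background fit (-1.28), or left out after it without horse 3 (-1.58, a setting added after the data were seen; limma adjusted p = 0.114). IL1A gained a call with Agilent's processed signals (-3.78). With each horse left out in turn, IL1RN ran from -2.36 to -2.01, IL1R2 from -5.62 to -5.20, IL1A from -1.12 to -0.63 and IL1B from -0.60 to -0.24, with the same calls. Member probes called lower numbered 11 with Agilent's processed signals, 1 with outlier spots kept, 1 with them left out after the fit 1 in that setting without horse 3, and 2 with any 1 horse left out. Targets called higher numbered 1878 with Agilent's processed signals, 614 with median centring, 94 with outlier spots kept, 93 with them left out after the fit and 81 in that setting without horse 3. Targets called lower were 147, 147 and 190 in these last 3 settings. Leaving out 1 horse left 389 to 820 targets higher and 1077 to 1415 lower. With the channels modelled separately and the horse as a replicate block, all 4 genes had the values reported (IL1RN at -2.20, limma adjusted p = 0.00243). That fit is the same paired test as the one on the ratios, so it is no separate check, though it counts among the 14 settings. Without the block IL1RN stayed called (limma adjusted p = 0.0102). Single genes that changed sign were never called. PTGS2 was at 0.10 with Agilent's processed signals, 0.079 as the mean of its probes, 0.11 with outlier spots kept, 0.11 with them left out after the fit and 0.19 in that setting without horse 3. With a horse left out, PTGS2 ran from -0.39 to 0.13, MMP3 from -1.48 to 0.051 and TNF from -0.45 to 0.055. Of 796 values of single genes and probes over the settings, 668 kept direction and call, 96 lost a call, 22 gained one and 10 changed sign. Spots near background limit IL1A and 9 of the IL1RN probes.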
